A study of Ornithorhynchus anatinus with 3 samples.

Results

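Platypus genes that were expressed in cultured fibroblasts but were close to absent from ovary are described here. They were selected on their deposited levels, with an RPKM of at least 3 in both fibroblast libraries and an FPKM below 0.5 with status OK in the ovary library. Their loci also had to lie on a numbered autosome, a numbered X chromosome, an ultracontig or a contig other than Contig819, and to span from 300 bp to below 100 kb. Of 20958 genes listed in all 3 tables, 8301 met the fibroblast minimum, the locus limits and the status, and 77 of these (0.928%) also fell below the ovary limit. These 77 genes are the members. Since the rule used both the fibroblast and the ovary values, the distance between fibroblasts and ovary is a description of how the members were chosen and is given without a test.

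The series consists of 3 libraries from adult Ornithorhynchus anatinus, each from a different individual. The groups are fibroblasts of a male (RNA integrity number 8.9), fibroblasts of a female labelled as ovulating (9.9) and the ovary of another ovulating female (9.3). All were made with a directional mRNA protocol, and no treatment or genetic change is named for any of them. With 1 library per group, no value has replicates and no difference between groups was tested. Tissue, individual and, for the comparison with fibroblasts, the way the values were made differ together, and cannot be told apart.

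RPKM, the unit of the fibroblast tables, is a read count scaled to the length of the exon model and to the number of mapped reads. FPKM, the unit of the ovary table, is the corresponding quantity for fragments. The medians over the 12534 genes above 0 in all 3 libraries were an RPKM of 11.9 in male fibroblasts, an RPKM of 12.6 in female fibroblasts and an FPKM of 14.6 in ovary, so that the scales were of similar size. Read numbers behind the fibroblast values are unknown. Among the 262 genes above 0 in both fibroblast libraries with a mean RPKM under 0.05, the commonest male to female ratio was 1.22 (50 genes), which gives the relative worth of a read in both tables only.

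Fibroblasts are the connective tissue cells that secrete collagens and other proteins of the extracellular matrix, and they keep traces of the body position from which they were taken when they are grown in culture. The ovary contains oocytes, the follicle cells around them and a stroma that is itself rich in fibroblast-like cells, blood vessels and smooth muscle. Genes of fibroblasts are commonly found in ovary RNA as well, and in a whole organ fewer cells of a type and less RNA per cell cannot be told apart. The tables do not pair gene identifiers with names, and the RefSeq table at hand, made for another assembly, holds no Ensembl identifiers. Marker genes of fibroblasts or ovary could thus not be looked up, and the label of each library was not checked against its markers. Identifiers are given for the highest 2 members only, and the others are described by their position in the assembly of Ensembl release 57, counted from 1.

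Most genes of the fibroblasts were also present in the ovary. Of the 8301 genes, 8159 had an ovary FPKM of 1 or more, 65 lay between 0.5 and 1, and the 77 members lay below 0.5. The members were lower in fibroblasts than the whole set of 8301 genes, with median RPKM values of 12.7 for male and 10.96 for female fibroblasts, against 24.4 and 25.5. Taking the lower of the fibroblast values for each gene, the members ranged from 3.03 to 1240 with a median of 9.08 (95% interval from the order of the values, 6.98 to 13.9). The lower value reached an RPKM of 10 in 37 members (48.1%) and of 100 in 4 members, whereas 72.1% and 14.7% of the 8301 genes reached these levels. Members made up 1.73% of the genes whose lower value was from 3 to below 10, 1.07% of those from 10 to below 30, 0.234% of those from 30 to below 100, and 0.328% of those at 100 or above.

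**Figure D1:**
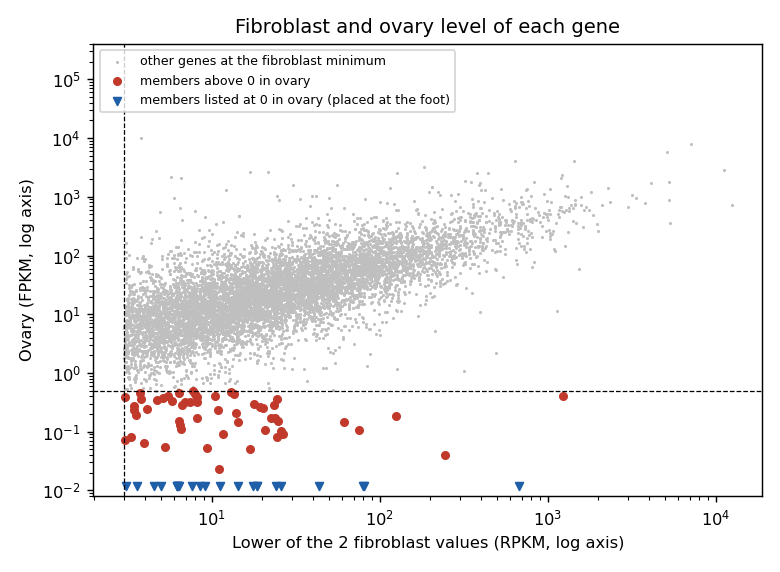
Ovary FPKM against the lower of the 2 fibroblast RPKM values for each gene at the fibroblast minimum, both on log axes, with dashed lines at the limits of the rule. The 54 members above 0 in ovary (red) and the 23 listed at 0 (blue, placed at the foot) lie beneath a cloud of other genes (grey) whose ovary levels rise with their fibroblast levels, and 4 members have lower RPKM values above 100.

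The member with the highest fibroblast level was ENSOANG00000003856, on Contig15910 from position 712 to 9822, where it is the sole listed gene. Its RPKM was 1621 in male and 1240 in female fibroblasts, and its ovary FPKM was 0.411, with an upper limit of 0.747. It held rank 42 among all genes of the male table and rank 53 in the female table, so that a gene among the most abundant ones of both cultures was barely seen in the ovary. The second was ENSOANG00000010391, a locus of 741 bp on Contig13362 from position 9959 to 10699. Its RPKM was 670.4 in male and 716 in female fibroblasts, at ranks 178 and 135, and it was listed at 0 in ovary. The values of the male and the female library were near each other for this gene, with an M∶F ratio of 1.07 after division by the autosomal median.

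Further members with high levels lay on scaffolds with few other genes. On Ultra553, the locus from 2906 to 5288 had RPKM values of 322 (male) and 243 (female) and an ovary FPKM of 0.0404. On Contig18368, the locus from 11260 to 12501 had an RPKM of 211 and 125, and an ovary FPKM of 0.188. Both were thus far above the median fibroblast level of the 8301 genes and had fewer than 1 FPKM in ovary.

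The locus on Contig9280 from 10418 to 13248 had RPKM values of 90.8 (male) and 80.4 (female), and it was listed at 0 in ovary. The locus on Contig49892 from 134 to 2997 had 174 and 79.5, and was also listed at 0. In the latter gene the cultures differed by more than 2-fold, whereas in the former they did not. The locus on Ultra362 from 467713 to 471721 had RPKM values of 75.03 (male) and 77.6 (female) and an FPKM of 0.109 in ovary. It had 39 other listed genes on its scaffold, the nearest of them 36.1 kb away, so that a high level in fibroblasts was not limited to genes on short contigs.

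Chromosome 3 carried the member with the highest level on a chromosome, from 59285581 to 59293490, with RPKM values of 61.5 (male) and 95.4 (female) and an FPKM of 0.144 in ovary. The locus on Ultra80 from 1280427 to 1280726, the shortest of all members at 300 bp, had 43.4 and 47.9, and was listed at 0. The tenth by level, on Contig17092 from 8423 to 10064, had 26.6 and 34.7 and an ovary FPKM of 0.0899. Among these 10 members the ovary value was 0 in 4, and the female library was the higher one, before any scaling, in 5.

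The ovary table gives no fragment numbers but an interval for each FPKM. If each limit is taken to lie 2 square roots of the count from the FPKM, the count follows from both. Of 10070 genes with status OK and a count under 300 read in this way, 58.2% came out within 0.01 of a whole number, and so did 36 of the 54 members above 0 in ovary. Another 17 members gave counts that were not whole. The last, on Ultra390 from 336621 to 339576, lies fully within the span of other listed loci and gave 519 fragments at an FPKM of 0.130, which is far outside the worth of a fragment in the other members, so that its count was not used.

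Read in this way, the ovary signal of these 53 members was a handful of fragments, with the 17 counts that were not whole included. The median was 4 (2.37 to 6.46), 46 of 53 members had 10 fragments or fewer, and the highest had 43.0. Among the 36 members with whole counts, 12 had 1 fragment, 5 had 2 and 3 had 3. A fragment was worth an FPKM between 0.00934 and 0.291 in them, with a median of 0.0473. At the lower of their fibroblast levels, the same loci would have given from 24.8 to 18087 ovary fragments, with a median of 193 (141 to 303). For 52 of the 53 this number was at least 30. These numbers are a description of the choice, as the quotient of both counts equals that of the RPKM and the FPKM, which the limits of the rule hold above 6 for every member. They also read both scales alike and take exon models of the same length.

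**Figure D2:**
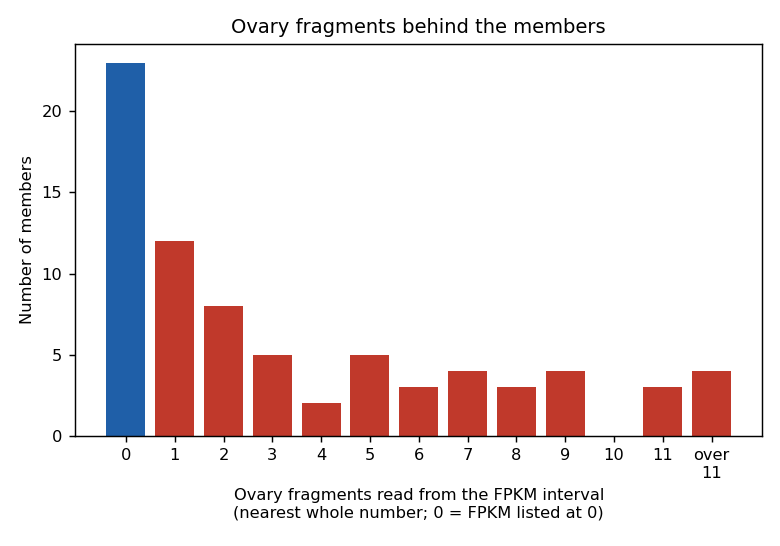
Number of members (vertical axis) by the number of ovary fragments read from the FPKM interval, rounded to the nearest whole number (horizontal axis), with the member on Ultra390 left out. The 23 members listed at 0 form the highest bar, 12 members rest on about 1 fragment, and 4 have more than 11.

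For the top member, 6 ovary fragments were read, where its lower fibroblast level would correspond to 18087. The quotient of the lower RPKM and the ovary FPKM was 3015 (exact Poisson interval for the fragment count, 1385 to 8214). On Ultra553, the quotient was 6012, the highest among the members, but it rests on 1 fragment and its interval runs from 1079 to 237458. For the locus on chromosome 3 from 59285581, it was 426 (167 to 1565) with 4 fragments. Over the 53 members the median quotient was 48.1 (25.4 to 83.2) and the lowest 7.91. These intervals cover counting error in ovary only, and the quotient sets values of different software side by side. No quotient was formed for members listed at 0. The upper limit of the ovary interval lay below an FPKM of 1 in all 54 members above 0, and its lower limit was 0 in 27 of them.

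The 23 members listed at 0 in ovary (29.9% of 77, 95% Wilson interval 20.8% to 40.8%) had upper limits of 0 as well, so that the table gives no bound for them. Their fibroblast levels were like those of the other members, with a median lower RPKM of 9.08 (range 3.10 to 670.4), against 8.76 for the 54 members above 0. Their loci were shorter, with a median of 2831 bp (741 to 6368) against 5134.5 bp (3580 to 9111), and these intervals overlap. Within the locus limits, 3057 genes with status OK were listed at 0 in ovary. Of these, 87.6% were at 0 in both fibroblast libraries too, and the 23 members made up 0.752%. An exact 0 can also be a failed estimate or stem from a gene model that differs between the tables, and 67 genes at the fibroblast minimum had no ovary entry at all, the highest of them with a lower RPKM of 393.

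To see how many fragments could have been expected at the members listed at 0, the worth of a fragment was taken from genes with whole counts and loci within 20% of the same length (136 to 644 genes for each member). At its lower fibroblast level, each of the 23 would then have given at least 21.7 ovary fragments, with a median of 122 (81.5 to 313). For ENSOANG00000010391 the number was 7522, and for the locus on Contig9280 it was 868. The smallest numbers came from a 382-bp locus on Contig281978 from 172 to 553 (RPKM 6.55 for male and 4.50 for female), with 21.7, and from a 681-bp locus on Contig104502 from 62 to 742 (RPKM 3.10 and 3.42), with 33.9. These numbers assume ovary exon models like those of other loci of this length.

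Zeros were most frequent among short loci. Of the 8301 genes at the fibroblast minimum, 9 of 378 with loci under 1 kb were listed at 0 in ovary (2.38%, Wilson interval 1.26% to 4.46%). From 1 to 3 kb there were 4 of 890 (0.449%), from 3 to 10 kb 4 of 2623 (0.152%), from 10 to 30 kb 5 of 2862 (0.175%), and from 30 kb 1 of 1548 (0.0646%). Of the 11 members with loci under 1 kb, 9 were at 0, and the exceptions were a 552-bp locus on Contig3892 from 18047 to 18598 with 3 fragments and an 807-bp locus on Contig147962 from 1 to 807 with 1 fragment. At the share found for loci of 10 kb or more (6 of 4410, 0.136%), the 3891 shorter loci would hold 5.29 zeros, where 17 were listed. Of the 23 zeros, 14 came from loci of 1 kb or more and 6 from loci of 10 kb or more, and this last group includes a member on Ultra474 from 3239802 to 3260586 (RPKM 19.8 for male and 18.6 for female) and the member on chromosome 4 from 32324187 to 32334497 (24.5 and 17.6).

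Among loci outside the limits of the rule, zeros were frequent for very short nuclear loci and for mitochondrial ones. Among nuclear loci under 150 bp at the same fibroblast minimum, 33 of 95 (34.7%) were listed at 0, but from 150 to below 300 bp none of 95 was, which allows a share of up to 3.16% (3 of 95). For mitochondrial loci, which are transcribed in every tissue, the ovary FPKM was below 0.5 for all 19 that reached the fibroblast minimum, and 11 of these were listed at 0, among them 3 of 300 bp or more. The other 8 zeros were all of the mitochondrial loci under 300 bp. Mitochondrial transcripts of this ovary were not measured in another way, and whether these values bear on nuclear loci was not tested. Whether differences in gene models or counting produced zeros among the 77 members was not tested.

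**Figure D3:**
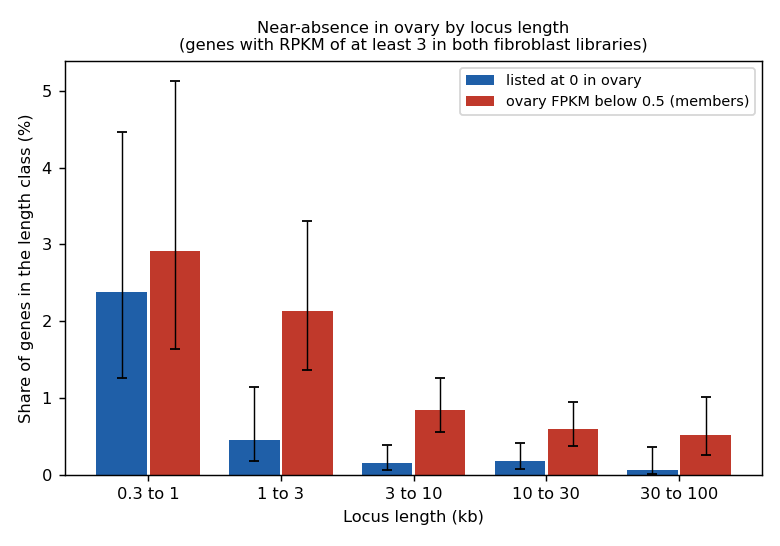
Share of genes (vertical axis, %) that were listed at 0 in ovary (blue) or had an ovary FPKM below 0.5 (red), by locus length in kb (horizontal axis), among the 8301 genes; whiskers are 95% Wilson intervals. Both shares were highest below 1 kb (2.38% and 2.91%) and lowest from 30 to 100 kb (0.0646% and 0.517%).

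The members as a whole also had shorter loci than the genes they were chosen from. Their median length was 4172 bp (2956 to 7651), where that of the 8301 genes was 10907 bp (10585 to 11261). Members above 0 in ovary made up 1.69% of the genes between 1 and 3 kb but 0.529% of those below 1 kb. Of the 11 members below 1 kb, 9 were listed at 0. The longest locus, on Ultra231 from 2341834 to 2395281, spans 53448 bp. It had RPKM values of 19.4 (male) and 19.7 (female), and an ovary FPKM of 0.258 with an upper limit of 0.483. Since exon lengths are not given, locus length includes introns.

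Agreement of the fibroblast libraries was not used by the rule beyond the minimum in each, and was lower for the members than for all 8301 genes. M∶F ratios were divided by the median of autosomal genes (0.875 over the 1655 with values above 0 in both). The members differed at least 2-fold between male and female fibroblasts in 18 of 77 cases (23.4%, Wilson interval 15.3% to 34.0%), where this was so for 7.32% of the 8301 genes. The male value was the higher one by this measure in 13 members (16.9%), against 4.96% of the 8301 genes, and the female value in 5 (6.49%), against 2.36%. The SD of the log2 M∶F ratio was 0.70 among the members and 0.55 among all 8301 genes. Across genes, Pearson's r between the log2 RPKM values of both libraries was 0.917 for the members and 0.957 for the 8301 genes, and Spearman's rho was 0.840 and 0.948. Neither r nor rho was matched for level, which was lower for the members. Genes of the same libraries are not independent replicates, so that these are descriptions.

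**Figure D4:**
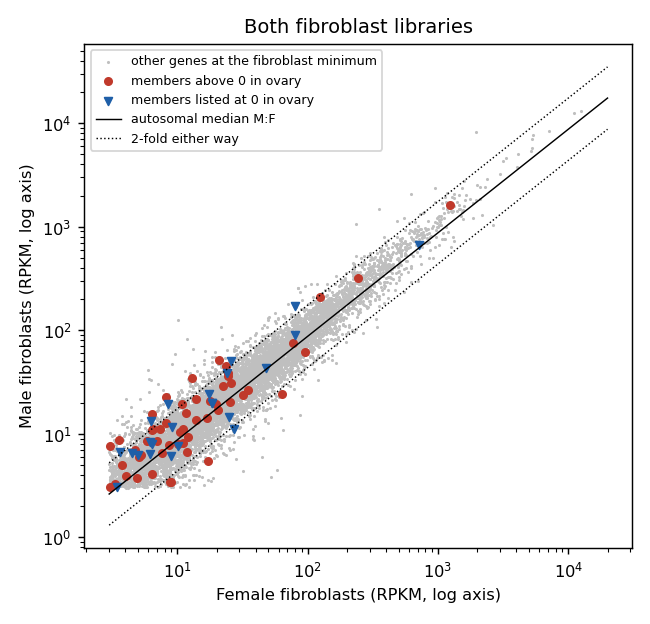
RPKM in male (vertical) and female fibroblasts (horizontal), both on log axes, for the 77 members and the other genes at the fibroblast minimum (grey). The solid line is the autosomal median ratio and the dotted lines mark 2-fold differences from it, beyond which lie 13 members on the male side and 5 on the female side.

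The members differed more often than all genes in both classes of level. Among genes with a lower RPKM from 3 to below 10, a 2-fold difference was seen in 10 of 40 members (25%) and in 13.8% of all 2316 genes. At an RPKM of 10 or more, it was seen in 8 of 37 members (21.6%) and in 4.83% of 5985 genes. The members' Wilson intervals were wide (14.2% to 40.2% and 11.4% to 37.2%), so that their shares cannot be ranked between the classes. The share of all genes was lower in the upper class. Level was not matched within that class, where 28 of the 37 members, but 2625 of the 5985 genes, lay below an RPKM of 30. The members listed at 0 in ovary took 6 of the 18 differences.

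The median M∶F ratio of the members was 1.33 (1.13 to 1.51), compared to 1.12 (1.11 to 1.13) for the 8301 genes, and 56 of the 77 members (72.7%) were higher in the male library by this measure, compared to 62.3%. Without the division the medians were 1.16 (0.988 to 1.32) and 0.977. Then 9 members were 2-fold higher in male and 5 in female fibroblasts, against 2.72% and 4.22% of the 8301 genes. When the ratios were divided by the median of all genes at the fibroblast minimum, the medians were 1.20 and 1.01, and 10 and 5 members differed 2-fold, against 3.01% and 3.65%. The order of the male and the female share among all genes thus depended on the scaling. Among the members the male share was the larger under each scaling, but these counts are small. Their Wilson intervals overlapped, and without the division they were 6.27% to 20.7% (male) and 2.81% to 14.3% (female). As each sex is represented by a single culture, sex, individual and culture cannot be told apart.

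The member with the highest M∶F ratio, 3.22, lies on Contig3128 from 9543 to 22220. Its RPKM was 22.9 (male) and 8.13 (female), and its ovary FPKM 0.320. The lowest ratio, 0.364, belonged to the locus on Ultra462 from 8193884 to 8226038, which had 5.52 (male) and 17.3 (female) and 0.401 in ovary. These genes thus differ between cultures in opposite directions and by similar factors.

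Of the other 4 members that were at least 2-fold higher in the female library, the locus on Contig16851 from 14604 to 18483 had the highest level, with RPKM values of 24.4 (male) and 63.2 (female). It was read at 1 fragment in ovary. The remaining 3 were those on Contig3892 (3.44 and 9.01), on Contig9145 from 21143 to 23243 (3.44 and 8.83) and on Contig30787 from 2066 to 2498 (11.2 and 27.5), and the latter was listed at 0 in ovary. Of the 5 members with a 2-fold higher female value, 1 was thus at 0 in ovary.

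The members were spread over the genome. They lay on 70 different chromosomes and scaffolds, with 42 members (54.5%) on contigs, 25 (32.5%) on ultracontigs, 8 (10.4%) on numbered autosomes and 2 (2.60%) on X chromosomes. For the 8301 genes these shares were 48.7%, 35.7%, 13.2% and 2.39%, each within the Wilson interval of the members' share. On the autosomes, 2 members were found on chromosome 3 (of 148 genes), 2 on chromosome 4 (of 177), and 1 each on chromosomes 2, 6, 7 and 12. No member was found among the 110 genes of chromosome 1, which allows a share of up to 2.73% (3 genes of 110).

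Both X-linked members lie on X1, where 105 genes could have passed. The first, from 41744496 to 41746035, had RPKM values of 11.2 (male) and 10.98 (female), and 1 ovary fragment gave it the lowest FPKM above 0 of all members, 0.0232. The second, from 43786177 to 43810300, had RPKM values of 14.4 (male) and 25.003 (female) and was listed at 0 in ovary. Their M∶F ratios were 1.16 and 0.659. None was found among 69 genes of X5, which allows a share of up to 4.35%. The paper describes the assembled X1 as mostly pseudoautosomal, meaning that it pairs with a Y chromosome, and males carry the remaining part once. Whether either locus lies within the pairing part was not determined.

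Members were rarely neighbours of each other. Among the 14 that shared a chromosome or scaffold with another member, a single pair lay within 50 kb. It consists of the longest locus on Ultra231 and a locus of 2864 bp, from 2309841 to 2312704, which are 29.1 kb apart. The shorter locus had RPKM values of 3.94 (male) and 4.07 (female) and an FPKM of 0.0644 in ovary. Both genes of this pair were equally high in both cultures, with M∶F ratios of 1.11 and 1.13, while the longer locus had the higher level. The next closest pair, on Ultra462, is 54.3 kb apart, and consists of the locus with the lowest M∶F ratio and one from 8099272 to 8139597 with RPKM values of 6.30 (male) and 4.96 (female), listed at 0 in ovary.

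Some of the members had a gene with ovary signal near them. Within 10 kb, a locus with an ovary FPKM of at least 1 was listed for 19 of the 77 members (24.7%, Wilson interval 16.4% to 35.4%) and for 30.1% of the 8301 genes, which lies within this interval. Of the 30 members with another listed locus within 10 kb, these 19 made up 63.3% (45.5% to 78.1%), against 82.3% for the 3039 such genes among the 8301. The highest ovary FPKM next to these 19 members ranged from 1.03 to 232, with a median of 21.9. A neighbour at the fibroblast minimum was found for 17 of the 30 (56.7%), against 68.3%. The nearest locus was at a median of 7040 bp (4895 to 14352) from a member and 8731 bp from one of the 8301 genes, and its median ovary FPKM was 3.85 (1.03 to 10.8) against 10.6. As examples, the locus on Contig20487 from 10605 to 15379 had RPKM values of 50.9 (male) and 25.8 (female) and was listed at 0 in ovary, while a locus 202 bp away had an FPKM of 13.9. The locus on Ultra9 from 1288842 to 1303514 had an FPKM of 0.383 and a neighbour at 146. The share of members that were the sole listed gene of their scaffold (24 of 77, 31.2%) was close to that of all 8301 genes (32.2%).

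Overlap with another listed locus, where reads can be given to either gene, occurred for 6 of the 77 members (7.79%, 3.62% to 15.98%) and for 4.54% of the 8301 genes. An overlap of at least 50% of the member locus was found for 3.90% of the members (1.33% to 10.8%). That share was not formed for the 8301 genes. A whole member was covered by other loci on Ultra390 and on Contig909 from 53855 to 58026, and nearly a whole one on Ultra70 from 615776 to 639760. The last had RPKM values of 20.2 (male) and 25.3 (female) and an FPKM of 0.256, within a locus at an FPKM of 57.9. The member on Contig909 (6.64 and 3.62) was the single member at 0 that overlapped another locus, which had an FPKM of 9.72. Whether strand was used in counting is not given in the sources used here, so that reads of such pairs cannot be told apart.

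Values just inside and just outside the limits of the rule lay close together. The members nearest the fibroblast minimum were the locus on Ultra9, with RPKM values of 3.08 (male) and 3.03 (female), and one on Contig15331 from 13842 to 21094, with 7.61 and 3.04. The nearest genes outside were on Ultra514 from 18882121 to 18898496 (2.99 and 3.44) and on Contig38814 from 1443 to 3836 (5.85 and 2.95). At the ovary limit, the nearest members were on Contig11375 from 10963 to 13854, with an FPKM of 0.491, and on Contig39444 from 5048 to 7379, with 0.483. The nearest genes outside had an FPKM of 0.502, on Ultra16 from 2197 to 17758, and 0.505, on Contig2738 from 28010 to 55023. The latter had RPKM values of 52.8 (male) and 69.0 (female), higher than all but 8 of the members in the female library. Without the conditions on locus and status, 132 genes passed both limits on expression. Those left out were 33 nuclear loci under 300 bp, 19 mitochondrial loci, 2 genes with the status LOWDATA and 1 locus of 131261 bp.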

How the data were processed

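The authors deposited an RPKM value per gene for the fibroblasts, and 7 genes with a negative code in place of a value were left out. For the ovary, the authors deposited an FPKM per gene with interval limits, locus and status. The submitters' processing notes name Bowtie, TopHat 1.0.13 and Cufflinks 1.0.3 without their roles, and the paper's Methods name the gene set of Ensembl release 57. Genes were joined by identifier after 4 repeated ovary entries had been dropped. The fibroblast tables hold no positions, so loci come from the ovary table, with starts moved by 1 to count from 1. The paper's Methods also describe a log2 transformation and a scaling of medians for its expression values. The deposited values are linear, and whether they carry the scaling is not given in the sources used here.

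The members and the results shown were chosen with earlier results of these data known. X1 to X5 were counted as numbered chromosomes. Members were named by a rule: identifiers for the 2 with the highest lower fibroblast RPKM, and positions for the next 8, for the extremes of M∶F ratio and locus length, and for the closest run. Members named beyond these were chosen after their values had been seen. Medians have 95% order-statistic intervals and shares 95% Wilson intervals, except that a count of 0 is given with the share that 3 genes would make. These cover counting error over genes and not the spread between animals. As groups hold 1 library, there are no p-values. The steps were run on simulated data whose intervals were made with the same formula. This checks the code, and not whether the formula holds for the ovary values. Scripts were run under Python 3.11.15 with scipy 1.17.1, pandas 2.3.3 and numpy 2.4.6, and figures drawn with matplotlib 3.10.9.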

Additional observations from a re-analysis of the deposited data

How the results depend on the processing

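No paired analysis was possible because a single library stands for every group and nothing was tested. Of 61 alternative values, 48 stayed within the 95% interval of the value reported, or within 1.5 times for a count, and 13 did not. Some of these 48 could hardly move, so that their number does not measure stability. Requiring an upper ovary limit below an FPKM of 1 returned 77 members with unchanged values, and leaving out the X chromosomes kept 75. With a fibroblast minimum of RPKM 10 there were 37 members. With an ovary limit of FPKM 0.1 there were 34, with a median locus of 2776 bp, 67.6% listed at 0 and 2.94% overlapping another locus. Without limits on locus length the median was 2383 bp, 50.5% were listed at 0, 20.7% overlapped another locus and 36.0% had a gene at an ovary FPKM of at least 1 within 10 kb, as 33 loci under 300 bp then enter. This last share was 24.7% as reported, 15.6% within 5 kb and 44.2% within 50 kb. With the male library alone in the rule the median M∶F ratio was 1.66, and with the female library alone it was 1.16 (1.02 to 1.40). Each such choice favours genes higher in the library used, so that the median depends on it. No member had another within 10 kb (0%). Leaving out the X chromosomes, chosen after seeing the data, gave 75 members and moved no value out of its interval. With the ovary values scaled to the fibroblast medians there were 89 members. These had to include all 77, because every ovary value was multiplied by 0.836 while the limit stayed the same. Depth limits the ovary values of single members, most of which rest on 10 fragments or fewer, and is unknown for the fibroblasts.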

Other observations

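A pair of members shared a locus length of exactly 16675 bp on different scaffolds, Ultra508 from 292734 to 309408 and Ultra67 from 1876131 to 1892805. Their fibroblast levels were also near each other, with RPKM values of 10.98 (male) and 6.41 (female) for the former and 13.4 and 6.28 for the latter, while the ovary FPKM was 0.464 and 0. Another pair shared a length of 2864 bp, on Contig49892 and Ultra231, but differed in level, with an RPKM of 174 and 3.94 in the male library. Whether these are copies of one another could not be looked up in the tables.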
